A study of Mus musculus with 8 samples.

Results

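Potassium channel subunit genes were taken as all genes whose symbol starts with Kcn, the root given to these genes in mouse and human. The array held 167 probe sets annotated to exactly 1 such symbol, and they stood for 84 genes among the 18194 genes with a probe set of 1 symbol. Where a gene had several probe sets, the one with the largest average across arrays was read, and 20 of the 84 genes exceeded a log2 value of 5 in 4 or more arrays. Of these 20, 19 encode channel subunits, and Kcnq1ot1 is a non-coding RNA transcribed antisense within Kcnq1 that the symbol rule takes in. Total RNA came from the ventricles of 8 male FVB mice aged 8 to 12 weeks, all of which had an ascending aortic banding, a narrowing of the aorta near the heart, 1 week earlier. In 4 mice, named TG_1 to TG_4, CHF1/Hey2, a repressor of transcription, was expressed from the mlc2v promoter, which is active in the muscle cells of the ventricle. The 4 wild-type mice, WT_1 to WT_4, carried no transgene. Each mouse gave 1 Affymetrix Mouse Genome 430 2.0 array. No heart without banding was analysed here, so each difference is one between banded hearts.

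Potassium channels end the cardiac action potential. A fast transient outward current starts repolarization, delayed rectifiers carry it further, and inward rectifiers and background channels hold the resting potential. In the mouse ventricle the transient outward current and the slowly inactivating Kv currents do most of this work, whereas the human ventricle leans on the rapid and slow delayed rectifiers. Loss of transient outward current, with less Kcnd2 and Kcnip2 message, is a known feature of hearts under pressure load.

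The deposited values were log2 expression values made with GCRMA, and a level is therefore comparable across arrays for 1 probe set but not between probe sets. Over the 9605 genes above the filter, each array but transgenic replicate 2 had its closest array at a correlation of 0.964 to 0.992. The 0.964 belonged to transgenic replicate 3. Transgenic replicate 2 stood apart, with correlations between 0.788 and 0.840 to the other arrays. In that array 37.2% of all genes and 8 of the 20 Kcn genes differed more than 2-fold from the other 7 arrays' median, and in transgenic replicate 3 these were 9.26% and 5 of 20. The other 6 arrays had between 0.729% and 1.53% of all genes and between 0 and 2 Kcn genes beyond this distance. Hey2 itself read 5.87, 5.70, 6.26 and 6.02 in transgenic replicates 1 to 4 and 5.89, 5.96, 5.68 and 6.76 in wild-type replicates 1 to 4. The groups overlapped, with a difference of -0.11 (exact two-sided permutation p = 0.771, smallest possible 0.0286), and -0.24 to 0.12 with single arrays left out. The labels do not say whether this probe set reads the transgene, so Hey2 gave no check of the labels, and the groups are named as labelled.

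**Figure D1:**
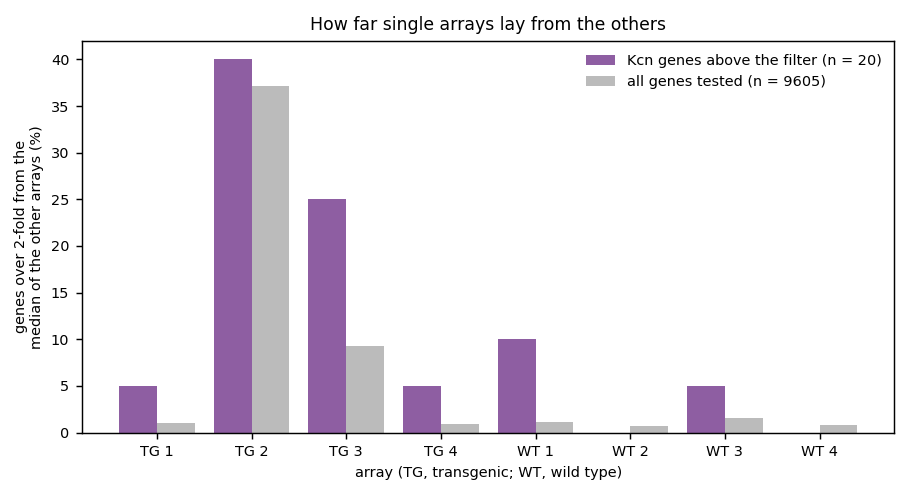
Percentage of genes in each array that differed more than 2-fold from the other 7 arrays' median, among the 20 Kcn genes above the filter (purple) and among all 9605 genes tested (grey). Transgenic replicates 2 and 3 stand at 40% and 25% for the Kcn genes and at 37.2% and 9.26% for all genes.

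The level of the filter was exceeded by different numbers of genes in each current type. Both pore genes of the ATP-sensitive current were above it, as were 3 of 7 Kcnd and Kcnip genes, the class of the fast transient outward current. The others of this class, Kcnd1, Kcnip1, Kcnip3 and Kcnip4, were below. In the class of the acetylcholine-gated current 2 of 4 were above it, and the relatives Kcnj6 and Kcnj9 were below. Also above it were 2 of 8 KCNQ and KCNE genes and 3 of 12 two-pore-domain background channel genes. The Kv1 family and its beta subunits gave 2 of 10, the Kv2 family with its silent partners 1 of 9, the EAG family, which holds the rapid delayed rectifier, 1 of 6, the transport inward rectifiers 1 of 5, the calcium-activated SK family 1 of 4 and the large-conductance and sodium-activated channels 1 of 7. None of the 3 Kv3 genes and none of the 4 genes of the strong inward rectifier was above the level. A further class of 3 non-coding RNAs held Kcnq1ot1 above the level and 2 below it.

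Several genes known from the ventricle were among the 64 below the level. Kcnj2 and Kcnj12, which encode the main pore subunits of the strong inward rectifier, ranged from 3.11 to 3.54 and from 2.75 to 3.42 over the 8 arrays. Kcna4, the pore of the slow transient outward current, ranged from 3.23 to 3.63. Kcne1, the partner of Kcnq1 in the slow delayed rectifier, ranged from 2.39 to 2.48, and Kcnab1 and Kcnab2, beta subunits of Kv1 channels, from 2.60 to 3.51 and from 2.53 to 4.22. These values are at the low end of the array's scale, and the array gives no ground to call the genes silent. Of the 64 genes, 63 had no array above 5. Close to the level were Kcnj14, a further strong inward rectifier, at 3.64 to 5.16 with 3 arrays above it, and Kcnn2, an SK channel, at 4.25 to 4.95 with none. Just inside were Kcnj15, with 5 arrays above it, and Kcnk2, with 7. Kcnt2 also had 7, with transgenic replicate 2 at 2.96.

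**Figure D2:**
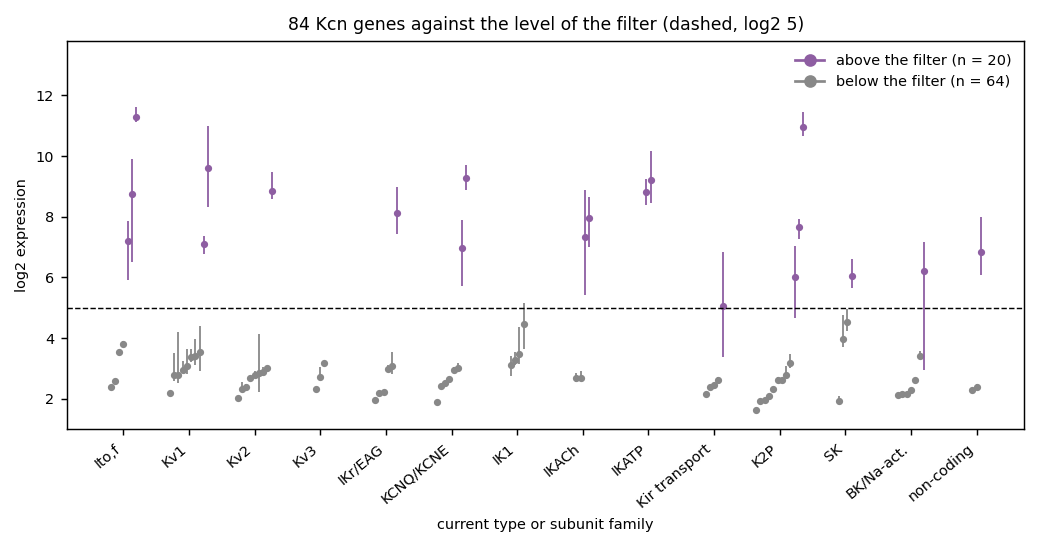
Log2 expression of the 84 Kcn genes, grouped by current type or subunit family. Points are means over the 8 arrays and vertical lines run from the lowest to the highest array, and the dashed line at 5 is the level of the filter, which 20 genes (purple) exceeded in at least 4 arrays and 64 genes (grey) did not. Heights of different probe sets are not comparable with each other.

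The comparison between the groups asked whether these genes differ under pressure load between the wild-type mice and those whose label names the CHF1/Hey2 transgene. Among the 20 Kcn genes, 14 had a higher and 6 a lower mean in the arrays labelled transgenic, with a median difference of 0.18 on the log2 scale. Over all 9605 genes the median was 0.061, and 57.0% had a higher mean. The Kcn median was 0.063 without transgenic replicate 3, 0.086 without wild-type replicate 3 and 0.30 without transgenic replicate 4. The medians of all genes were then 0.12, 0.064 and 0.057. None of the 20 passed the test, in which limma was fitted over all genes with Benjamini-Hochberg adjustment at 0.05. Of all genes, 0% were called higher and 0% lower, and no adjusted p was under 0.813. By limma's p before adjustment, at 0.05, there was 1 Kcn gene on the higher side, Kcnh2, where 1.23% of all genes were, and 1 on the lower side, Kcnj15, where 0.375% were. The 4 values labelled transgenic all lay above the 4 wild-type values for 3 Kcn genes, Kcnip2, Kcna7 and Kcng2, beside 2.00% of all genes. They all lay below them for 1, Kcnj15, beside 0.479% of all genes. Kcnj15 met the filter mainly through its wild-type values, as given below, which favoured its place in both lower-side counts. In each of the 4 genes whose groups did not overlap, the gap between the groups was at most 0.11. Any such separation of 4 against 4 values gives the smallest possible exact permutation p, 0.0286, so that p adds nothing to it. Without transgenic replicates 2 and 3 the median difference was 0.054 over the 20 genes and 0.051 over all genes. Of the 20 only Kcnd3 then had an unadjusted limma p under 0.05, beside 1.95% of all genes.

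**Figure D3:**
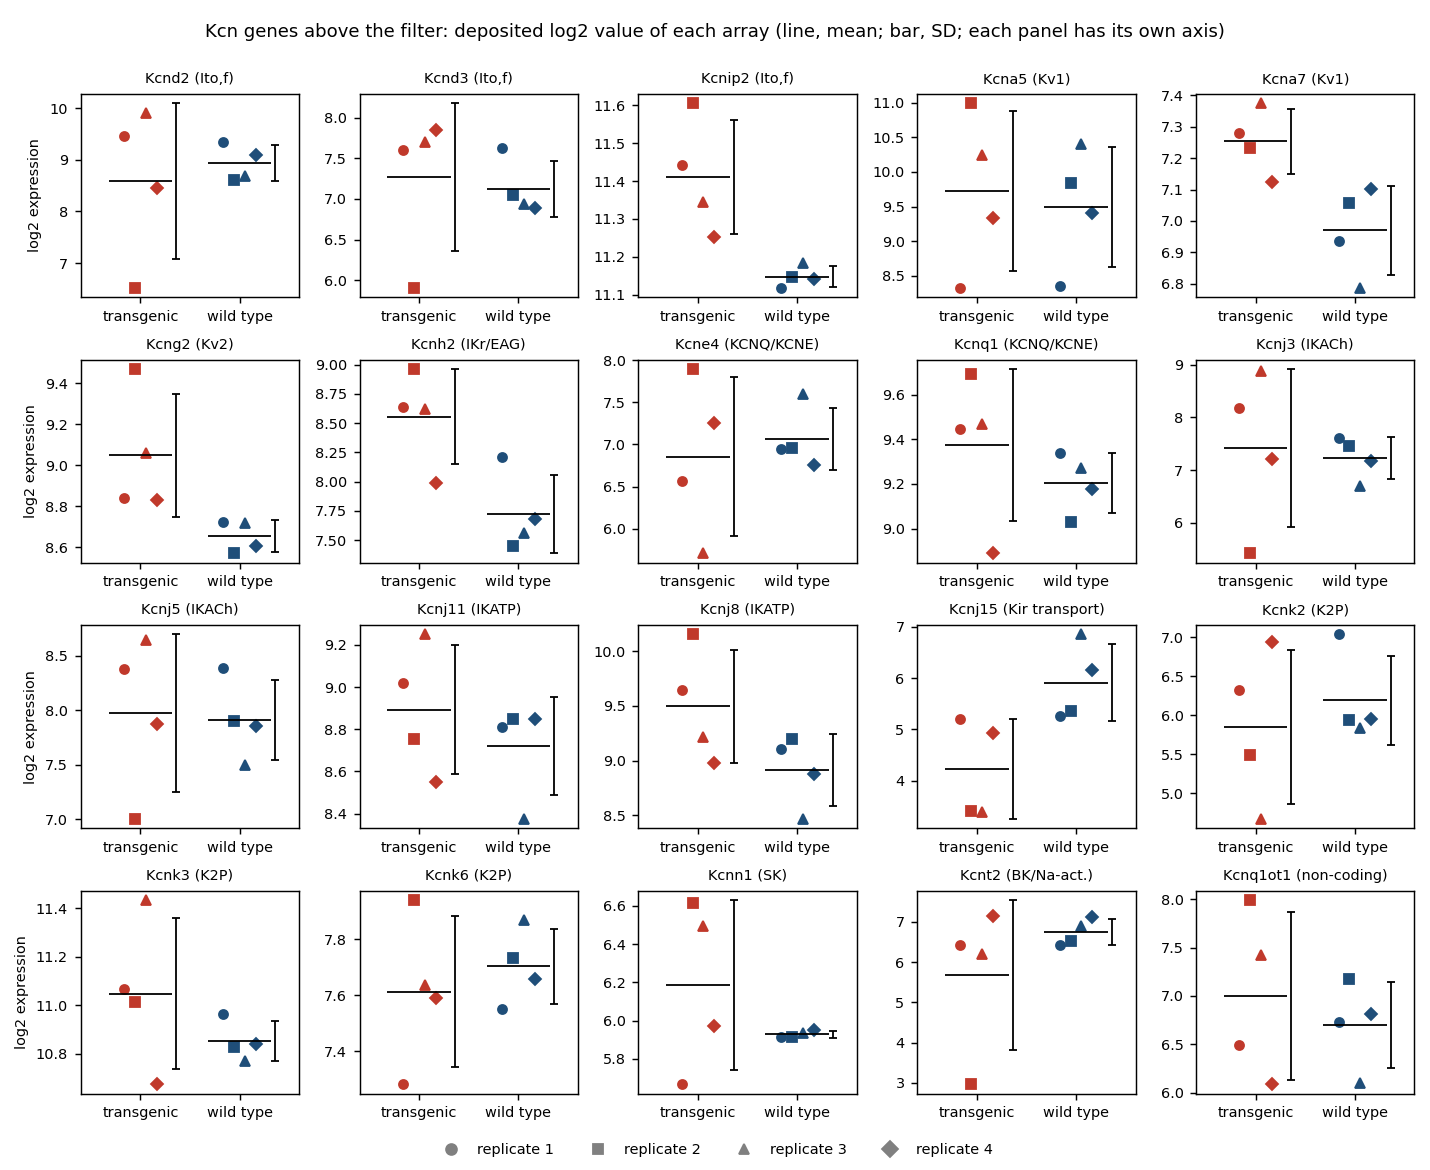
Log2 expression of the 20 Kcn genes above the filter in each array, with transgenic arrays in red and wild-type arrays in blue. The marker shape gives the replicate number, horizontal lines are group means, vertical bars are SDs (n = 4 each), and each panel has its own axis. Only Kcnip2, Kcna7, Kcng2 and Kcnj15 show groups that do not overlap.

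The fast transient outward current had its 2 pore genes and its accessory subunit above the level. Kcnip2 encodes KChIP2, the calcium-binding subunit that brings Kv4 channels to the surface. It read 11.44, 11.60, 11.34 and 11.25 in transgenic replicates 1 to 4 and 11.12, 11.15, 11.18 and 11.14 in wild-type replicates 1 to 4. All values labelled transgenic lay above all wild-type values, which by itself fixes the permutation p. The wild-type values were nearly alike. The difference was 0.26 (95% confidence interval -0.071 to 0.60; limma adjusted p = 0.813; exact permutation p = 0.0286, the smallest possible). It was 0.20 without transgenic replicates 2 and 3, and 0.20 to 0.32 with single arrays left out. A second Kcnip2 probe set had means of 10.25 and 9.48 and a difference of 0.77, but there the groups overlapped, since transgenic replicate 4 at 9.48 lay below wild-type replicates 1 and 2 at 9.94 and 9.69.

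Kcnd2, which encodes the pore subunit Kv4.2, read 9.47, 6.52, 9.91 and 8.46 in the transgenic arrays and 9.34, 8.60, 8.69 and 9.10 in the wild-type arrays. Transgenic replicate 2 was the lowest of all 8 and transgenic replicate 3 the highest, so that both ends of the range were in the transgenic group. The difference of -0.34 (SE 0.660) was smaller than the SD of that group, 1.51, and it was 0.35 without transgenic replicate 2 and 0.034 without replicates 2 and 3. The 2 other Kcnd2 probe sets above the level also had their lower mean in the transgenic group, with differences of -0.77 and -0.085. The former read 3.44 in transgenic replicate 2, against 7.04 to 8.89 in the other arrays. The latter read 5.60 and 5.56 in transgenic replicates 2 and 4, against 6.11 to 7.95 in the others. Their signs thus lean on the same low array and are no separate support. Kcnd3, which encodes the related pore Kv4.3, read 7.61, 5.91, 7.70 and 7.85 against 7.63, 7.05, 6.93 and 6.89. Here too transgenic replicate 2 was lowest, and the other 3 transgenic arrays lay above wild-type replicates 2 to 4 and close to wild-type replicate 1. The difference was 0.14 with all arrays, 0.59 without transgenic replicate 2 and 0.60 without replicates 2 and 3, and between -0.053 and 0.31 with any other single array left out. No transient outward gene passed (limma adjusted p 0.813 to 0.905).

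The voltage-gated genes outside the Kv4 family held 2 of the genes whose groups did not overlap. Kcng2 encodes a silent subunit that forms no channel alone and modifies Kv2 channels. It read 8.84, 9.47, 9.06 and 8.83 in the transgenic arrays and 8.72, 8.57, 8.72 and 8.61 in the wild-type arrays. Every transgenic value was higher, which by itself fixes the permutation p, and replicate 2 was farthest away. The difference was 0.39 (95% confidence interval -0.028 to 0.82; limma adjusted p = 0.813; exact permutation p = 0.0286), and it was 0.18 without transgenic replicates 2 and 3. Kcna7, which encodes Kv1.7, read 7.28, 7.23, 7.38 and 7.13 against 6.94, 7.06, 6.79 and 7.10. The 2 groups were separated by 0.022, the least among the 4 genes, and with quantile normalization they overlapped. Its difference of 0.28 (95% confidence interval -0.062 to 0.63; limma adjusted p = 0.813) was 0.23 without transgenic replicates 2 and 3, and Kcna7 was the only member with a smaller SD in the transgenic than in the wild-type arrays, 0.10 against 0.14.

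Kcna5 encodes Kv1.5, the pore of the ultrarapid delayed rectifier, which in mouse ventricle carries a slowly inactivating current. It read 8.32, 10.99, 10.25 and 9.33 in the transgenic arrays and 8.35, 9.84, 10.40 and 9.40 in the wild-type arrays. The spread was within the groups and not between them. The lowest array of each group, replicate 1 in both, read about the same, and the highest and lowest of the 8 arrays were both transgenic. The wild-type SD of 0.87 was larger than that of 99.2% of all genes tested. The difference was 0.23 (SE 0.618; limma adjusted p = 0.894), -0.20 without transgenic replicate 2, -0.15 without wild-type replicate 1 and -0.67 without transgenic replicates 2 and 3.

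Kcnh2 encodes ERG1, the pore of the rapid delayed rectifier, and had the smallest limma p of the 20 genes, though not the smallest permutation p. It read 8.64, 8.96, 8.62 and 7.99 in transgenic replicates 1 to 4 and 8.21, 7.45, 7.56 and 7.68 in wild-type replicates 1 to 4. The groups overlapped through 1 array on each side, since transgenic replicate 4 lay below wild-type replicate 1 and above the other 3 wild-type arrays. The group means of 8.56 ± 0.41 and 7.72 ± 0.34 (SD, n = 4 each) lay 0.83 apart on the log2 scale (95% confidence interval 0.25 to 1.42), which is 1.78-fold. The exact two-sided permutation p was 0.0571, and the gene did not pass (adjusted limma p = 0.813). The difference was 0.59 without transgenic replicates 2 and 3 and 0.70 to 1.02 with single arrays left out. The other 5 EAG genes on the array, Kcnh1, Kcnh3, Kcnh5, Kcnh7 and Kcnh8, were below the level.

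Kcnq1 encodes the pore of the slow delayed rectifier. Its values of 9.45, 9.69, 9.47 and 8.89 in the transgenic arrays spanned those of the wild-type arrays, 9.34, 9.03, 9.27 and 9.18. The difference was 0.17 (SE 0.203), and -0.036 without transgenic replicates 2 and 3. Kcne4, an accessory subunit that can inhibit KCNQ1 channels, read 6.56, 7.90, 5.70 and 7.26 against 6.95, 6.96, 7.61 and 6.75, with its highest and its lowest value in transgenic replicates 2 and 3. The difference of -0.21 (SE 0.444) turned to 0.17 without replicate 3. The summed level of 4 macrophage markers, all above the level, was also highest in transgenic replicate 2 and lowest in replicate 3, at 13.31 and 11.19 on the log2 scale, with 11.96 and 12.54 in the other 2 transgenic arrays and 11.87 to 12.63 in wild type. The sum of the smooth muscle markers had the same extremes, 14.09 and 12.81. The part of either list in the Kcne4 values was not tested. Kcnq1ot1 read 6.49, 8.00, 7.42 and 6.08 against 6.73, 7.17, 6.10 and 6.81. Its difference of 0.30 (SE 0.429) was -0.037 without transgenic replicate 2 and -0.42 without replicates 2 and 3. Its 2 other probe sets above the level differed by -0.83 and 0.85, in opposite directions. None of these 3 genes passed (limma adjusted p 0.813 to 0.871).

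**Figure D4:**
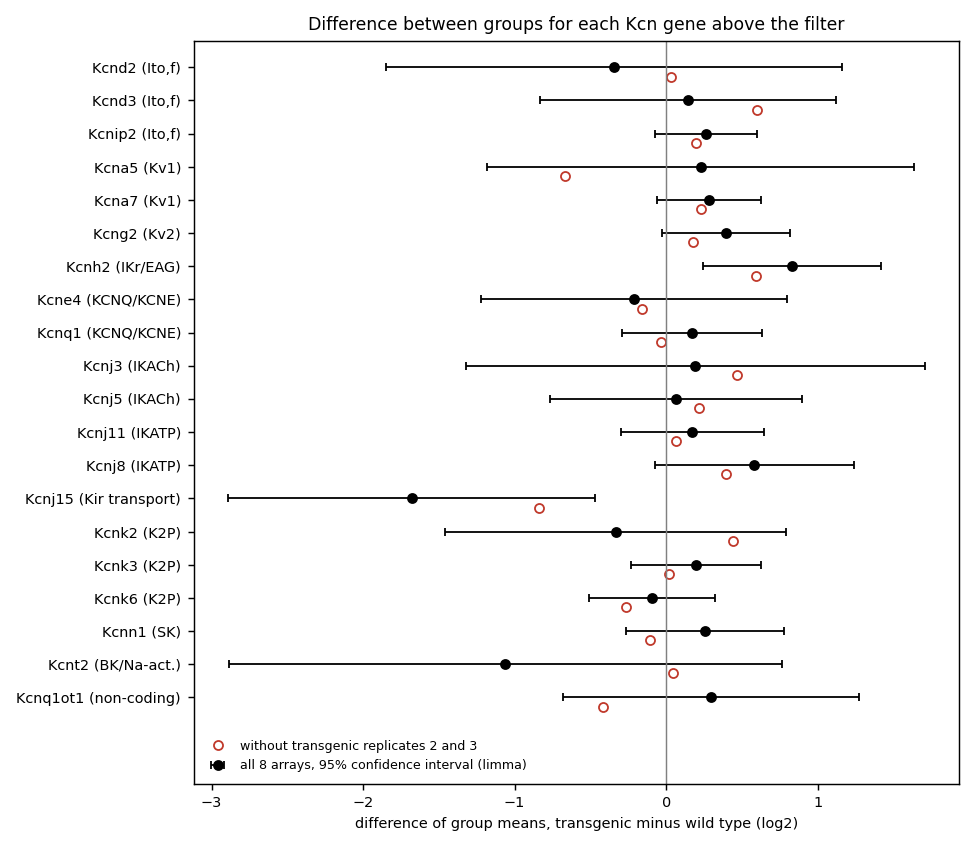
Difference of group means, transgenic minus wild type, on the log2 scale for the 20 Kcn genes above the filter. Filled points with bars are limma estimates with 95% confidence intervals over all 8 arrays, and open red circles are the differences without transgenic replicates 2 and 3. Only the intervals of Kcnh2 and Kcnj15 leave out 0, before adjustment for the 9605 genes, and neither gene passed after it.

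The inward rectifiers above the level belonged to the acetylcholine-gated current, the ATP-sensitive current and the transport class. Kcnj3 and Kcnj5 encode the 2 subunits of the acetylcholine-gated channel, which is best known from atrium and nodes. Kcnj3 read 8.19, 5.42, 8.88 and 7.21 in the transgenic arrays and 7.62, 7.45, 6.69 and 7.16 in the wild-type arrays. Kcnj5 read 8.38, 7.003, 8.64 and 7.87 against 8.39, 7.90, 7.496 and 7.85. Both subunits were lowest in transgenic replicate 2 and highest in transgenic replicate 3, and in wild type both were highest in replicate 1 and lowest in replicate 3. Their differences were 0.19 (SE 0.664) and 0.064 (SE 0.364). They moved to 0.86 and 0.39 without transgenic replicate 2, and to -0.29 and -0.16 without replicate 3. Neither passed (limma adjusted p 0.917 and 0.950). The summed level of 3 atrial markers, all above the level, ranged from 11.82 to 12.80 on the log2 scale in the transgenic and from 11.46 to 12.26 in the wild-type arrays. The sum and Myl4 (12.08) were highest in transgenic replicate 2, where Kcnj3 and Kcnj5 were lowest. Myl7 was highest in transgenic replicate 3, at 11.21, where both were highest, and Sln in wild-type replicate 1, at 9.89, where both were highest in wild type. Of 3 conduction system markers measured, 0 passed the filter, and Tbx3 had 1 array above 5, transgenic replicate 3 at 5.23. The part of these markers in the Kcnj3 and Kcnj5 values was not tested.

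The ATP-sensitive channel joins a Kir6 pore to a sulfonylurea receptor and opens when energy runs short. Kcnj11, which encodes Kir6.2, the pore in ventricular muscle, read 9.02, 8.75, 9.25 and 8.55 against 8.81, 8.85, 8.38 and 8.85. The groups overlapped widely, with a difference of 0.17 (SE 0.208), which was 0.057 without wild-type replicate 3 and 0.053 without transgenic replicate 3. A second Kcnj11 probe set differed by 0.79, also with overlap. Kcnj8, which encodes Kir6.1 and is known from vascular mural cells, read 9.64, 10.15, 9.21 and 8.98 against 9.11, 9.20, 8.47 and 8.88. In it 3 of the 4 transgenic arrays lay above all wild-type arrays, and replicate 4 did not. The difference was 0.58 (95% confidence interval -0.073 to 1.24; limma adjusted p = 0.813; exact permutation p = 0.114), and 0.40 without transgenic replicates 2 and 3. Transgenic replicate 2, the highest for Kcnj8, also had the highest summed level of 4 smooth muscle markers, 14.09 against 12.81 to 13.23 in the other transgenic and 13.05 to 13.21 in the wild-type arrays. Of these, Acta2 (13.64), Tagln and Cnn1 were highest in that array and Myh11 was lowest, at 8.18 against 8.58 to 8.94 in the other 7. Of 4 pericyte markers, Pdgfrb (12.71), Cspg4 (10.28) and Notch3 (10.41) were also highest there, whereas Rgs5 was lowest, at 11.69 against 13.12 to 13.40. The pericyte sum, which Rgs5 dominates, was 13.62 in that array, 13.47 to 13.86 over the transgenic and 13.74 to 13.83 over the wild-type arrays. All 8 smooth muscle and pericyte markers were above the level. The endothelial, macrophage and atrial sums were also highest in transgenic replicate 2, at 12.02, 13.31 and 12.80. Of the endothelial markers, Pecam1 (11.18), Cdh5 (9.38) and Tie1 (9.63) were highest there, whereas Kdr was lowest, at 8.52 against 8.67 to 9.21. Of the atrial markers only Myl4 was highest there. The part of any of these lists in the Kcnj8 values was not tested. In bulk tissue, a change in the number of cells of a type and a change of RNA per cell cannot be told apart.

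The receptor genes of this channel, which carry no Kcn symbol, were read as partners. Abcc8, the SUR1 gene, differed by 0.23 (SE 0.259). Abcc9, the SUR2 gene and the chromosomal neighbour of Kcnj8, read 12.75, 10.39, 13.12 and 12.24 against 12.38, 12.55, 12.35 and 12.51. It was lowest in transgenic replicate 2, the array in which Kcnj8 was highest.

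Kcnj15 encodes Kir4.2, an inward rectifier known from transporting epithelia, and had the largest difference of the 20 genes. It read 5.20, 3.40, 3.38 and 4.94 in transgenic replicates 1 to 4 and 5.26, 5.35, 6.85 and 6.16 in wild-type replicates 1 to 4. All transgenic values were lower, which by itself fixes the permutation p. However, transgenic replicate 1 and wild-type replicate 1 were only 0.067 apart, and 3 of the 4 transgenic values were below the level of 5. The difference was -1.68 (95% confidence interval -2.89 to -0.47; limma adjusted p = 0.813; exact permutation p = 0.0286). Without transgenic replicates 2 and 3 it was -0.84, and with single arrays left out it lay between -2.002 and -1.36. The other Kcnj15 probe sets had 0 arrays above the level and differed by -0.064 and 0.049. Kcnj15 met the filter through its 4 wild-type values and 1 transgenic one, so it was tested only because it was high in that group. The other 4 transport inward rectifiers, Kcnj1, Kcnj10, Kcnj13 and Kcnj16, had 0 arrays above the level.

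Two-pore-domain channels carry background current. Kcnk3, which encodes the acid-sensitive channel TASK-1, read 11.07, 11.01, 11.44 and 10.67 in the transgenic arrays and 10.97, 10.83, 10.77 and 10.84 in the wild-type arrays. Replicate 4 was the lowest of all 8 arrays and the other 3 transgenic arrays were the 3 highest. The difference was 0.20 (SE 0.189), and 0.021 without transgenic replicates 2 and 3. The 2 other Kcnk3 probe sets above the level differed by 0.29 and 0.37. Kcnk2, which encodes the stretch-sensitive channel TREK-1, read 6.32, 5.49, 4.67 and 6.94 against 7.03, 5.94, 5.83 and 5.95. Both groups held 1 array near 7, and the lowest value was in transgenic replicate 3. The difference was -0.33 (SE 0.493), 0.059 without that array and 0.44 without replicates 2 and 3. Transgenic replicate 3 also had the lowest summed level of 4 fibroblast markers, all above the level, at 13.60 against 14.69 to 15.13 in the other transgenic and 14.82 to 15.16 in the wild-type arrays, and all 4 markers were lowest there. Col1a1 lay farthest off, at 10.44 against 13.59 to 14.35, and Dcn was 13.27 against 13.33 in transgenic replicate 2. The macrophage, smooth muscle and pericyte sums were lowest in transgenic replicate 3 as well, at 11.19, 12.81 and 13.47, and the part of these lists in the Kcnk2 value was not tested. Kcnk6, which encodes TWIK-2, read 7.28, 7.94, 7.64 and 7.59 against 7.55, 7.73, 7.87 and 7.66, a difference of -0.091 (SE 0.182), or 0.019 without transgenic replicate 1. None of the 3 passed (limma adjusted p 0.813 to 0.865), and the other 9 genes of the class were below the level.

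Of the channels gated by calcium or sodium, Kcnn1 and Kcnt2 were above the level. Kcnn1, which encodes the small-conductance channel SK1, read 5.67, 6.61, 6.49 and 5.97 in the transgenic arrays and 5.92, 5.91, 5.94 and 5.95 in the wild-type arrays. The wild-type SD was 0.017 and the transgenic SD 0.44, with 1 transgenic array below and 3 above every wild-type array. The difference was 0.26 (SE 0.228), and -0.11 without transgenic replicates 2 and 3. Kcnt2, a sodium-activated channel subunit, read 6.43, 2.96, 6.20 and 7.15 against 6.43, 6.53, 6.90 and 7.13. Transgenic replicate 2 lay 3.79 below the wild-type mean, the largest deviation of any member in any array. The difference of -1.06 (SE 0.801) rested on that array and was -0.15 without it. Kcnma1, the pore gene of the large-conductance calcium-activated channel, ranged from 3.30 to 3.56 and was below the level. Neither Kcnn1 nor Kcnt2 passed (limma adjusted p = 0.813 each).

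**Figure D5:**
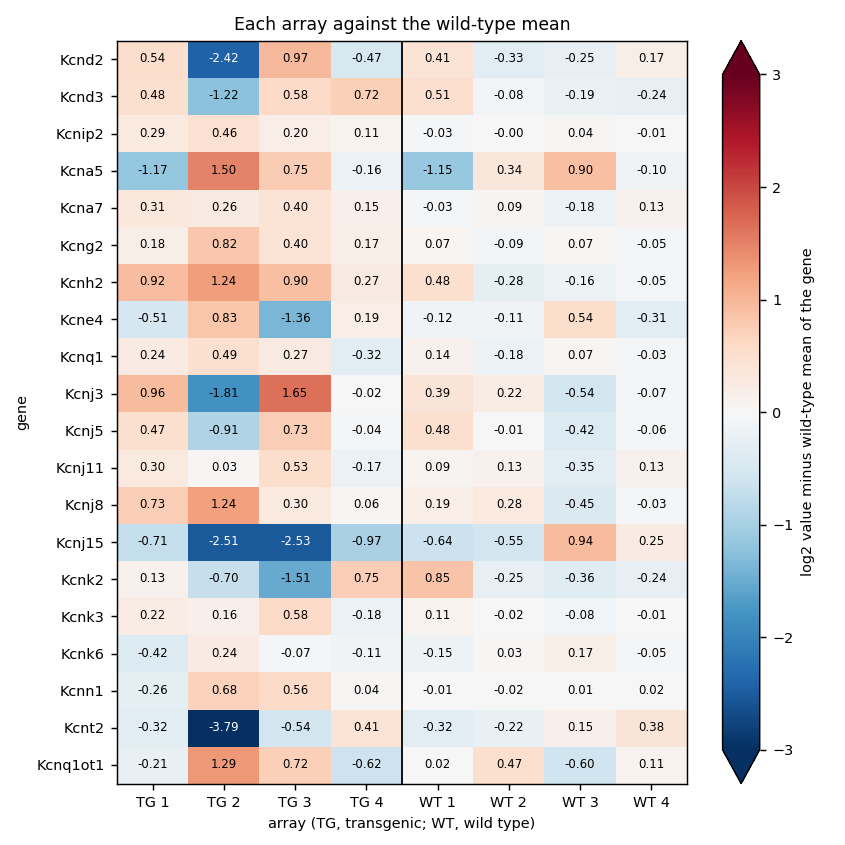
Log2 value of each array minus the wild-type mean of the gene, for the 20 Kcn genes above the filter, with genes in rows, arrays in columns and the number printed in each cell (red, above the wild-type mean; blue, below; colours saturate at 3). Transgenic replicate 2 holds -3.79 for Kcnt2 and -2.42 for Kcnd2, and transgenic replicate 3 holds 1.65 for Kcnj3 and -2.53 for Kcnj15.

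Much of the spread lay in 2 arrays. Transgenic replicate 2 held the lowest of the 8 values for 5 genes, Kcnd2, Kcnd3, Kcnj3, Kcnj5 and Kcnt2, and the highest for 10. Transgenic replicate 3 held the lowest for 3 genes and the highest for 6. Wild-type replicate 4 held neither for any gene. The SD was larger in the transgenic than in the wild-type arrays for 19 of the 20 genes, as it was for 89.1% of all genes. All 4 transgenic values lay above the wild-type mean for 5 genes and below it for 1, beside 13.7% and 4.17% of all genes. The median wild-type SD of the 20 genes was 0.33, against 0.19 over all genes, and the median half-width of the 95% confidence interval was 0.74, against 0.61.

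In 6 genes there were 9 further probe sets above the level beside the one used, and 8 of these 9 had a difference of the same sign. The exception was 1 of Kcnq1ot1. Probe sets of a gene were read on the same arrays, so a shared sign is no separate support. The direction of all 20 differences was the same with quantile normalization and with median centring of the arrays.

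A list of 29 partners and regulators without a Kcn symbol had 15 genes above the level, of which 8 had a higher and 7 a lower mean, with a median difference of 0.080. None passed in either direction (limma adjusted p at least 0.813), and in none did the groups stay apart. The 4 with the smallest p were Cav3, caveolin-3, at 0.49 (SE 0.253), Gata4, a cardiac transcription factor, at 0.49 (SE 0.282), Irx4, a ventricular transcription factor, at 0.45 (SE 0.262), and Ank2, the scaffold ankyrin-B, at -0.81 (SE 0.756). Ank2 read 6.27 in transgenic replicate 2, whereas the lowest of its other 7 values was 9.14. Klf15, a regulator of Kcnip2, differed by 0.080 (SE 0.300). All 6 ventricular muscle markers were above the level, with a summed log2 level of 17.70 to 17.97 in the transgenic and 17.87 to 17.94 in the wild-type arrays, and 0 of 4 skeletal muscle markers and 0 of 2 nerve and glia markers measured were.

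Hairy-related repressors are known to bind E-box-like sites, among them CACGTG and CACGCG. RefSeq promoters (GRCm38.p6) were held for 15 of the 20 genes, in 19 windows of 250 bases before a transcription start. CACGTG, which reads alike on both strands, and CACGCG, searched on both strands, were counted. The windows of 2 genes, Kcnd3 and Kcne4, held either motif, 10.5% of the 19 windows, whereas 12.9% of all 32851 windows did (6.02% with CACGTG and 7.62% with CACGCG). The windows of Kcnd3 and Kcne4 are shown because they hold a motif, and 2 without one, of Kcnip2 and Kcnh2, as examples. They lie at chr3:105451640-105451889 on the plus strand, chr1:78816661-78816910 on the plus strand, chr19:45816064-45816313 on the minus strand and chr5:24329592-24329841 on the minus strand, each printed 5′ to 3′ toward the start, with motifs in capitals (in Kcnd3 the first match is CACGCG read on the opposite strand).
Kcnd3: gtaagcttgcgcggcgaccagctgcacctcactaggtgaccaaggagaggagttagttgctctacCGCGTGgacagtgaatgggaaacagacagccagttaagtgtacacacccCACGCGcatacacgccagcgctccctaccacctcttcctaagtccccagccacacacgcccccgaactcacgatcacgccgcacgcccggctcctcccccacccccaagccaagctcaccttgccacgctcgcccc
Kcne4: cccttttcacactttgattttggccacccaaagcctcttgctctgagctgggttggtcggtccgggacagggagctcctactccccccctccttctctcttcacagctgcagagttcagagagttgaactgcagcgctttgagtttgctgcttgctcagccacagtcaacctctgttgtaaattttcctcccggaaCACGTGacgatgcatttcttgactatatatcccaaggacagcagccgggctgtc
Kcnip2: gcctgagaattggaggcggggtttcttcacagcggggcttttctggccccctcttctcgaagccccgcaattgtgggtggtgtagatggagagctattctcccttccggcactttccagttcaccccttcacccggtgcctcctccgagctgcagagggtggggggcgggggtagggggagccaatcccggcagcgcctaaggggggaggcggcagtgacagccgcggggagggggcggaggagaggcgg
Kcnh2: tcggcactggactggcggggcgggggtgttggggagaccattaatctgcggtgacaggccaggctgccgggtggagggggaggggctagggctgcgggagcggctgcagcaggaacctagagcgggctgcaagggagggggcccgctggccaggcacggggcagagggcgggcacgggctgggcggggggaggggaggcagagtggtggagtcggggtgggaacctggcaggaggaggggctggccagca
The 2 motif matches of Kcnd3 began 185 and 136 bases before the start, and that of Kcne4 began 54 bases before it. The windows of Kcnip2 and Kcnh2 held 0 matches, which says only that these letters are not in these 250 bases. Kcnip2 was picked from the genes whose groups did not overlap, and Kcnh2 for the smallest limma p. The windows of Kcna7 and Kcnj15, whose groups did not overlap either, also held 0 matches, and Kcng2 had no window. Both motif-bearing genes had overlapping groups, as described above.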

How the data were processed

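The authors deposited log2 expression values of 45101 probe sets on 8 Affymetrix Mouse Genome 430 2.0 arrays, and the submitters' processing notes name GCRMA, with no version. Deposited log2 values ranged from 0.84 to 16.11, with array medians of 3.33 to 3.43. GCRMA gives probe sets at background similar low values, where differences are hard to read. Precision is limited by the number of arrays.

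Groups came from the sample titles. The platform annotation gave 1 symbol for 34958 probe sets, and all 167 Kcn probe sets matched RefSeq by Entrez identifier with 0 symbols changed. A gene was read by its probe set of largest average, and genes above 5 in at least 4 arrays were tested (9605). Transgenic minus wild type was fitted over all genes by lmFit and eBayes, without a trend (limma 3.58.1, R 4.3.3), with Benjamini-Hochberg adjustment at 0.05. Single genes also had an exact two-sided permutation test. The steps were run on simulated data with the same SD in both groups, so they were not tested under the larger spread of the transgenic arrays. The p-values measure the spread between mice.

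The Kcn genes, the current types, the partner and marker lists, the tests and the alternatives, among them the leaving out of transgenic replicates 2 and 3, were chosen with earlier results of these data known. By the rule for named genes, values per array were given for a panel of cardiac channel genes and for members with an unadjusted p under 0.05 or groups that did not overlap. They were given here for all 20, and for Ank2, Abcc9 and genes below the level, chosen after their values were seen. Marker sums are log2 of summed linear values.

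Same-numbered arrays of the 2 groups did not deviate together in every pair (correlations of 0.295, -0.0066, -0.334 and 0.201 over genes), so the numbers were not taken as pairs. Pairs 1 and 4 exceeded their highest correlation with another number, 0.015 and 0.185, and pairs 2 and 3 did not (0.200 and 0.315). Transgenic replicate 1 and wild-type replicate 1 were each other's closest array, at a correlation of 0.992. Whether arrays of the same number were handled together was not tested.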

Additional observations from a re-analysis of the deposited data

Results flagged for a closer look

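Of 42 groups of 4 arrays, 2 for each of the 20 Kcn genes and for Hey2, 3 had a single array far from the other 3 by Dixon's test, and chance gives about 1 in 20 groups. Kcnd3 was 5.91 in transgenic replicate 2, the low one. Kcnj11 was 8.38 in wild-type replicate 3, the low one, and without that array its difference was 0.057 in place of 0.17. Kcnk2 was 7.03 in wild-type replicate 1, the high one, and without it the difference was -0.052 in place of -0.33.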

How the results depend on the processing

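No member passed in either direction under any of the 21 alternatives, and the smallest adjusted p of a member was 0.216. Of the 20 differences, 8 (Kcnip2, Kcna7, Kcng2, Kcnh2, Kcnj8, Kcnj11, Kcnj15 and Kcnk3) kept their sign under every alternative in which the gene was tested. The cause of the changes below was not tested unless the alternative's own construction shows it.

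The median difference was 0.023 with no filter, where all 84 genes entered. The number of genes whose groups did not overlap was 4 of 20, beside 2.48% of all genes. It was 2 of 16 when a gene's probe sets were averaged (2.62% of all genes). With single arrays left out it was 4 to 9 of 20, while the share of all genes was 3.27% to 8.97%. The 9 and the 8.97% were both without transgenic replicate 4. The number with an unadjusted p under 0.05, 2, was 5 of 84 with no filter (2.00% of all genes), 1 with a filter at 7 (1.37%), 11 with array weights (15.9%), 4 with an unequal-variance test (1.499%), 1 without transgenic replicates 2 and 3 (1.95%), and 2 to 4 with single arrays left out (0.354% to 5.63%). With no filter Kcnip2 had a smaller limma p than Kcnh2. These 2 counts were added after seeing the data. With the replicate block the second count was 3 (1.53%), Kcnj8 being added, the median difference was 0.18 and 0 members passed.

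With array weights the difference turned sign for Kcna5 (-1.05), Kcnd2 (0.41), Kcnq1ot1 (-0.17), Kcnn1 (-0.19) and Kcnk2 (0.24). Without transgenic replicates 2 and 3 it did for Kcna5 (-0.67), Kcnq1 (-0.036), Kcnd2 (0.034), Kcnq1ot1 (-0.42), Kcnt2 (0.044), Kcnn1 (-0.11) and Kcnk2 (0.44). With single arrays left out the ranges that crossed 0 were -0.20 to 0.69 for Kcna5, -0.78 to 0.35 for Kcnd2, -0.16 to 0.39 for Kcnj5, -0.20 to 0.019 for Kcnk6, -0.29 to 0.86 for Kcnj3, -0.053 to 0.59 for Kcnd3, -0.56 to 0.17 for Kcne4, -0.037 to 0.60 for Kcnq1ot1, -0.69 to 0.059 for Kcnk2 and -0.24 to 0.12 for Hey2. Signal over background limits Kcnj15 most, with 3 transgenic arrays below 5.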
